A study of Mus musculus with 18 samples.

Results

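The 9 genes that mark mast cells or encode their granule proteins and were followed through the mouse colon in TNBS colitis are the chymases Mcpt1, Mcpt2, Mcpt4 and Cma1, the tryptase Tpsb2, the carboxypeptidase Cpa3, the IgE receptor subunits Fcer1a and Ms4a2, and the histamine-forming enzyme Hdc. They were taken by symbol, and all 9 were among the 35976 symbols of the expression table. The study profiled total RNA of colon tissue from 3 groups of 6 libraries, all collected on day 2: sham animals without colitis, animals with colitis induced by TNBS that received vehicle, and animals with TNBS colitis that received ISM012-042. TNBS is a hapten that sets off acute inflammation of the colon, and the series title describes the compound as a gut-restricted PHD inhibitor, that is, an inhibitor of the prolyl hydroxylases that mark hypoxia-inducible factors for degradation. Strain, sex and age, and whether each library came from a separate animal, are not given in the labels, so p-values measure the spread between these libraries only. The tissue was colon with its cell types mixed, in which fewer cells of a type and less RNA per cell cannot be told apart. The sample titles do not give the position along the colon or the layers taken.

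Mast cells are long-lived tissue cells that store histamine and proteases in granules and release them when antigen cross-links IgE on the high-affinity receptor. In mice, mucosal mast cells of the epithelium and lamina propria are known for Mcpt1 and Mcpt2, whereas connective tissue mast cells of the submucosa and muscle are known for Mcpt4, Cma1, Tpsb2 and Cpa3. Mucosal mast cells mature under transforming growth factor beta and expand in type 2 immune responses, and all mast cells depend on the receptor tyrosine kinase Kit and its ligand.

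The 4 chymases are neighbours in the chymase and granzyme cluster of chromosome 14 (GRCm38.p6, RefSeq spans, 1-based). Mcpt1 lies at 56017964 to 56020391, Mcpt2 at 56021584 to 56044635, Mcpt4 at 56059744 to 56062310 and Cma1 at 55941451 to 55944675. The span of Mcpt2 contains Mcpt9 on the opposite strand, and reads of the pair cannot be assigned by position alone if the counting ignored strand. The other members are single genes elsewhere: Cpa3 on chromosome 3 (20215616 to 20242209), Tpsb2 on chromosome 17 (25366308 to 25368096), Fcer1a on chromosome 1 (173221269 to 173227232), Ms4a2 on chromosome 19 (11615517 to 11623790) and Hdc on chromosome 2 (126593659 to 126624025).

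Because the chymases are close relatives, their coding sequences (GENCODE M21, GRCm38) are shown where they are hardest and easiest to tell apart. Over the coding sequence Mcpt1 was 82.1% identical to Mcpt2, 86.4% to Mcpt4 and 65.3% to Cma1. The first 60 coding bases are the most alike stretch of that length in Mcpt1 and Mcpt2, and capitals mark bases that differ from Mcpt1.
Mcpt1: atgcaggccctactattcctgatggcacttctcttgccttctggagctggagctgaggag
Mcpt2: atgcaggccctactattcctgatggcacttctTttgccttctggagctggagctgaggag
Mcpt4: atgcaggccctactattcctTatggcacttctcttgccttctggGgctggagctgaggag
Mcpt2 differed from Mcpt1 at 1 of these 60 bases and Mcpt4 at 2. The least alike stretch, coding bases 538 to 597, is written in the same way.
Mcpt1: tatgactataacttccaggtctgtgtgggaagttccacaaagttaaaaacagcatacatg
Mcpt2: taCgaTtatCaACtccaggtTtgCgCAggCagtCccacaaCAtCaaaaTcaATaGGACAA
Mcpt4: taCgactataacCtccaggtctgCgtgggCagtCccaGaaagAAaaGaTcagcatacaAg
Here Mcpt2 differed at 23 bases and Mcpt4 at 11. No stretch of 75 coding bases of Mcpt1 occurred unchanged in Mcpt2 or Mcpt4, and the longest identical runs were 49 and 46 bases. How the authors treated reads that fit more than 1 gene is not given in the sources used here, so the split between these chymases carries that uncertainty.

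The promoters of the mucosal chymase Mcpt1 and of the connective tissue chymases Mcpt4 and Cma1, 3 neighbours whose levels correlated across libraries although only Cma1 had its highest group median in sham, are shown for the 250 bases before the RefSeq start (GRCm38.p6). Capitals mark the letters GATA with A or T before them and A or G after them, on either strand, which is the motif of GATA factors, of which Gata2 is a known regulator of mast cell genes.
Mcpt1, chr14:56017714-56017963, + strand: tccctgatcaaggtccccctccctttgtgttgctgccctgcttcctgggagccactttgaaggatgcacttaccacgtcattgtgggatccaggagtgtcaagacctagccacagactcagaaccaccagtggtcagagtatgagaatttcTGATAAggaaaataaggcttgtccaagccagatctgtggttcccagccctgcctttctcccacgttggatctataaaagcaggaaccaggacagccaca
Mcpt4, chr14:56062311-56062560, - strand: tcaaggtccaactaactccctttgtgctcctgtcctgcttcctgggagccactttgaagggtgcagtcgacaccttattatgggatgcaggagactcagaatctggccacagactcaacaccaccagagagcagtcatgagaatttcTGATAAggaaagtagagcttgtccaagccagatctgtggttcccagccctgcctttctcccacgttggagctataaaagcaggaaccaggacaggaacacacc
Cma1, chr14:55944676-55944925, - strand: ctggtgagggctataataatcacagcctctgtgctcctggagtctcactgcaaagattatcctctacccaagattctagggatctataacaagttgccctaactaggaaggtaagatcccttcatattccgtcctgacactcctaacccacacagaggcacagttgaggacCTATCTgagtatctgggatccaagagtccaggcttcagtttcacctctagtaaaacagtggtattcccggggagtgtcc
Mcpt1 and Mcpt4 carry TGATAA starting 99 and 103 bases before the start, their windows are 84.1% identical over aligned bases, and they share an unbroken run of 53 bases. The RefSeq promoter table held 7 of the 9 members, and all 7 had a match (Ms4a2 had 3). Of 32851 promoters of the same length 26.5% had one. A match is a run of letters, not a binding site. Gata2 was low, with medians of 0.698 TPM in sham, 1.02 TPM in vehicle and 0.875 TPM in ISM012-042.

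TPM is a transcript level per gene length, scaled to a total of 1000000 in each library, so genes can be compared on it, while the sequencing depth is unknown. Mcpt1 was the most abundant member, with a median of 10.4 TPM over the 18 libraries (range 1.27 to 115) and at least 1 TPM in all of them. Mcpt2 followed with a median of 4.05 TPM and Hdc with 1.25 TPM. Cpa3 and Cma1 had medians of 0.639 and 0.586 TPM, Tpsb2 0.458 TPM, Mcpt4 0.364 TPM, Fcer1a 0.295 TPM and Ms4a2 0.14 TPM. The neighbours in this order from Cpa3 to Ms4a2 overlapped widely in range. Leaving Hdc aside, Mcpt1 and Mcpt2 together made up 58 to 95.2% of the summed TPM of the members in a library, with a median of 84.9%. The pair of mucosal chymases set the level of the summed signal, while Cpa3 reached 1 TPM in 4 of 18 libraries and Tpsb2 in 2.

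**Figure D1:**
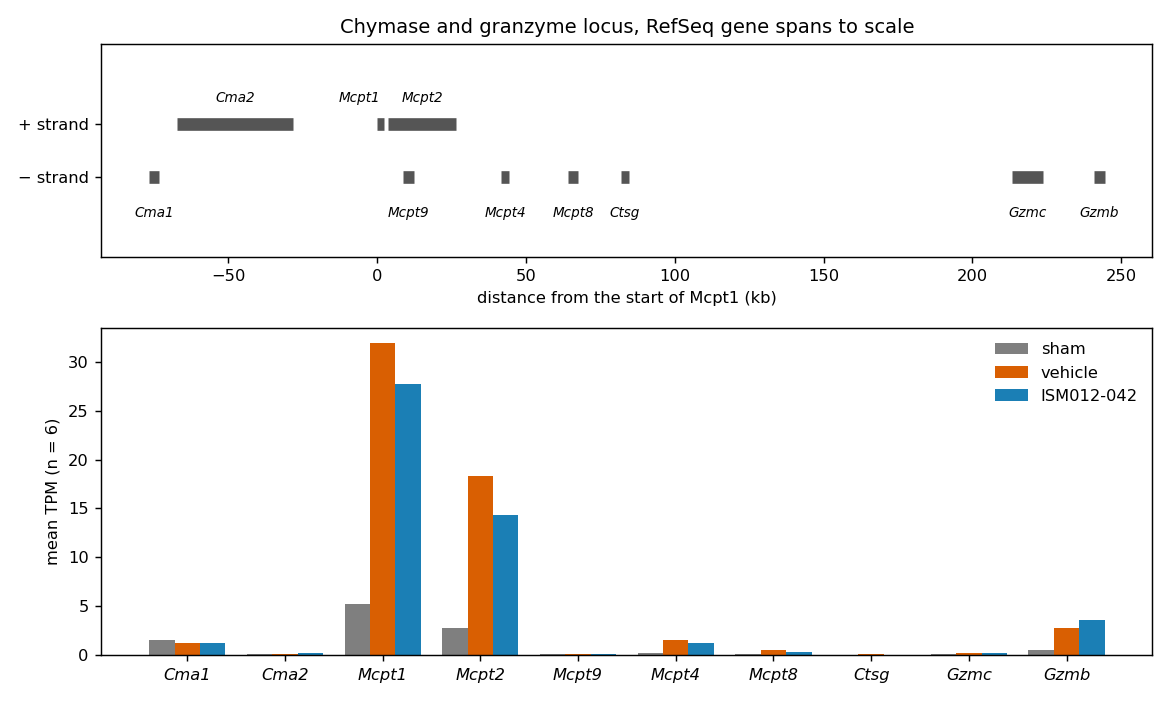
Upper panel, RefSeq spans of the chymase and granzyme genes by distance from the start of Mcpt1 (kb) and by strand, to scale. Lower panel, mean TPM (n = 6) per group for the same genes, where Mcpt1 and Mcpt2 stand far above their neighbours and Mcpt9, Cma2, Ctsg and Gzmc are near 0.

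Other mast cell genes varied widely in level, and 11 of 18 reached 1 TPM in at least 6 libraries. Mcpt9, Cma2, Mrgprb1, Mrgprb2 and Gata1 stayed below 1 TPM in every library. Srgn had medians of 16.7 TPM in sham, 43.9 TPM in vehicle and 29.5 TPM in ISM012-042, and Tpsg1 of 45.9, 41.2 and 49.6 TPM. Tpsab1, a tryptase that RefSeq lists as a transcribed pseudogene in this assembly, was at most 0.662 TPM outside 1 ISM012-042 library with 4.95 TPM. Kit was between 7.35 and 30 TPM in every library, but in the gut it also marks the interstitial pacemaker cells of the muscle. Its deviations from the group means were not parallel to those of Mcpt1 (Pearson r = -0.51, Spearman rho = -0.54 over 18 libraries, and r = -0.28 without the 2 libraries farthest from the median of Mcpt1). This is a description over libraries that share a fixed total.

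Mcpt1, the mucosal chymase also known from serum as a sign of intestinal mast cell release, ranged from 1.27 to 10.4 TPM in sham (median 5.35), from 2.53 to 115 TPM in vehicle (median 18.9) and from 8.4 to 64.8 TPM in ISM012-042 (median 14.2). Of the vehicle libraries 4 of 6, and of the ISM012-042 libraries 4 of 6, lay above the highest sham library, so the groups overlapped. The difference of vehicle from sham was 1.74 ± 0.71 (SE) on the log2(TPM + 1) scale with an adjusted p of 0.189 (limma over all genes, Benjamini-Hochberg), and that of ISM012-042 from sham was 1.95 ± 0.71 with an adjusted p of 0.158. ISM012-042 and vehicle differed by 0.22 ± 0.71 (adjusted p = 0.835). Of 31 alternative analyses of each comparison, Mcpt1 passed the threshold of 0.05 in 1 for ISM012-042 against sham, with the level of Hoxb13 as a covariate (2.31 ± 0.62, adjusted p = 0.0377, range over the alternatives 0.0377 to 0.312), and in 0 for the other comparisons.

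Mcpt2, the second mucosal chymase, ranged from 1.26 to 5.16 TPM in sham (median 2.62), from 0.658 to 76.1 TPM in vehicle (median 8.13) and from 3.23 to 32.7 TPM in ISM012-042 (median 6.44). The lowest library of all was a vehicle library, and 3 libraries of each colitis group lay above the highest sham library. The differences were 1.35 ± 0.74 for vehicle against sham (adjusted p = 0.363), 1.61 ± 0.74 for ISM012-042 against sham (adjusted p = 0.234) and 0.26 ± 0.74 for ISM012-042 against vehicle (adjusted p = 0.81), none past the threshold in limma. The ratio of Mcpt1 to Mcpt2 TPM had a median of 2.01 over the 18 libraries and a range of 1.01 to 3.84, so both chymases kept a like proportion while each varied by far more.

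**Figure D2:**
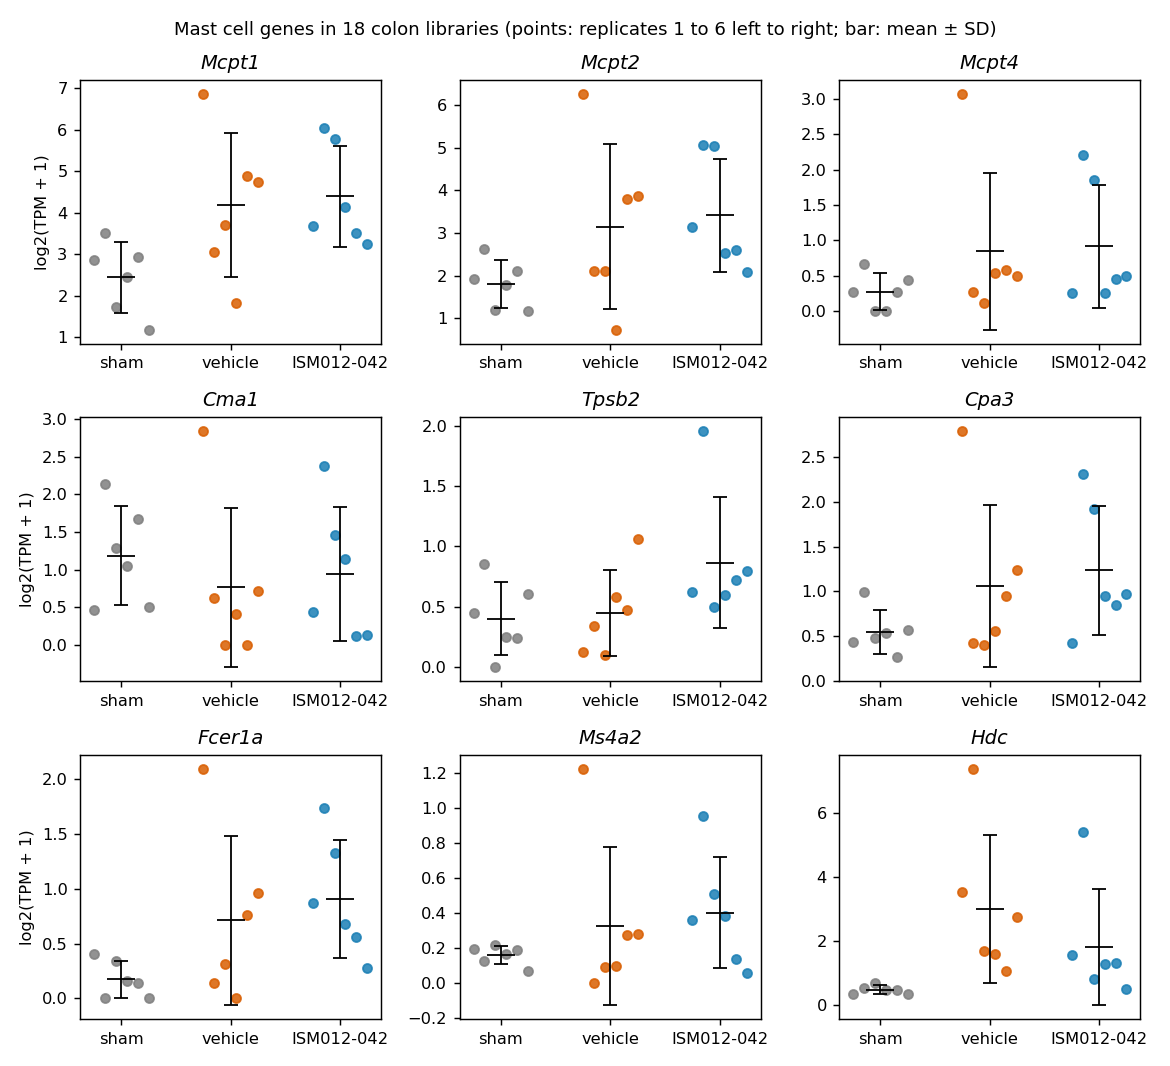
Level of each of the 9 genes as log2(TPM + 1) in the 6 libraries of each group (points, replicates 1 to 6 from left to right) with the mean and SD (bars); the vertical axes differ between panels and do not all start at 0. Vehicle 1, that is replicate 1 of the vehicle group, is the highest point for 7 of the 9 genes, and Hdc is the gene whose vehicle points all lie above its sham points.

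Mcpt4, the chymase of connective tissue mast cells, was between 0 and 0.584 TPM in sham (median 0.209), 0.083 and 7.41 TPM in vehicle (median 0.435) and 0.195 and 3.6 TPM in ISM012-042 (median 0.39). A single vehicle library and 2 ISM012-042 libraries stood above all sham libraries. Differences were 0.57 ± 0.44 (vehicle against sham, adjusted p = 0.631), 0.64 ± 0.44 (ISM012-042 against sham, 0.48) and 0.08 ± 0.44 (ISM012-042 against vehicle, 0.958) in the limma fit. Without ISM012-042 2 the second of these was 0.39 ± 0.43 (adjusted p = 0.729).

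Cma1, the other chymase of connective tissue mast cells and the mouse gene closest in sequence to human chymase, ranged from 0.372 to 3.39 TPM in sham (median 1.25), from 0 to 6.14 TPM in vehicle (median 0.429) and from 0.081 to 4.17 TPM in ISM012-042 (median 0.777). It was correlated with Mcpt4 across libraries after removal of the group means (Pearson r = 0.83, Spearman rho = 0.57, and r = 0.52 without the 2 libraries farthest from the median of Mcpt4), but the order of the group medians differed. Cma1 was the only member whose sham median was the highest of the 3 groups, and 2 vehicle libraries were listed at 0. In sham its summed TPM was 6.51 times that of Mcpt4 and it was above Mcpt4 in 6 of 6 libraries, against 5 of 12 colitis libraries. The differences of -0.42 ± 0.47 (vehicle against sham, adjusted p = 0.7), -0.24 ± 0.47 (ISM012-042 against sham, 0.754) and 0.18 ± 0.47 (ISM012-042 against vehicle, 0.797) were smaller than their spread. Without vehicle 1 the first of these was -0.84 ± 0.38 (adjusted p = 0.216), and without ISM012-042 2 the second was -0.53 ± 0.45 (0.587).

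Tpsb2, the tetramer-forming tryptase, was below 1 TPM in all sham libraries (0 to 0.807, median 0.279). It ranged from 0.074 to 1.09 TPM in vehicle (median 0.327) and from 0.416 to 2.87 TPM in ISM012-042 (median 0.597). All groups overlapped. The differences were 0.05 ± 0.23 for vehicle against sham (adjusted p = 0.983), 0.47 ± 0.23 for ISM012-042 against sham (0.338) and 0.42 ± 0.23 for ISM012-042 against vehicle (0.405), by limma. Without ISM012-042 2 the last 2 were 0.25 ± 0.17 (adjusted p = 0.591) and 0.20 ± 0.17 (0.627).

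Cpa3, the granule carboxypeptidase that trims peptides cut by chymases, ranged from 0.201 to 0.996 TPM in sham (median 0.419), from 0.321 to 5.92 TPM in vehicle (median 0.703) and from 0.336 to 3.97 TPM in ISM012-042 (median 0.943). In each colitis group 2 libraries exceeded the highest sham library. The limma differences were 0.51 ± 0.37 (vehicle against sham, adjusted p = 0.612), 0.69 ± 0.37 (ISM012-042 against sham, 0.373) and 0.18 ± 0.37 (ISM012-042 against vehicle, 0.816).

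Fcer1a encodes the IgE-binding subunit of the receptor and was between 0 and 0.326 TPM in sham (median 0.108), 0 and 3.26 TPM in vehicle (median 0.467) and 0.21 and 2.33 TPM in ISM012-042 (median 0.712). Of the ISM012-042 libraries 5 of 6 lay above the highest sham library, and of the vehicle libraries 3 of 6. The difference was 0.54 ± 0.30 for vehicle against sham (adjusted p = 0.458), 0.73 ± 0.30 for ISM012-042 against sham (0.272, unadjusted 0.024) and 0.20 ± 0.30 for ISM012-042 against vehicle (0.737) in limma. Ms4a2, the beta subunit that amplifies the receptor's signal, stayed at or below 0.16 TPM in sham, 1.33 TPM in vehicle and 0.932 TPM in ISM012-042, with medians of 0.128, 0.138 and 0.292 TPM. Its largest difference was 0.24 ± 0.17 for ISM012-042 against sham (adjusted p = 0.504), which became 0.13 ± 0.16 without ISM012-042 2 (0.765). The third subunit, Fcer1g, which other myeloid cells use for their own Fc receptors, was at 10.7 to 18.2 TPM in sham, 13.2 to 213 TPM in vehicle and 17.2 to 171 TPM in ISM012-042. Fcer1g differed between vehicle and sham by 1.36 ± 0.60 (adjusted p = 0.233), by 0.87 ± 0.51 without vehicle 2 (0.39) and by 1.92 ± 0.53 with Hoxb13 as a covariate (0.0464), the only 1 of 31 alternatives past the threshold.

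Hdc, histidine decarboxylase, is the enzyme that makes histamine, and it is also known from immature and activated myeloid cells. It ranged from 0.254 to 0.61 TPM in sham (median 0.378), from 1.08 to 167 TPM in vehicle (median 3.99) and from 0.403 to 41.9 TPM in ISM012-042 (median 1.46). All 6 vehicle libraries were above all 6 sham libraries, the lowest of them 1.77 times the highest sham library. Of all genes tested, 0.687% were higher in vehicle than in sham without overlap. The difference of 2.53 ± 0.91 from sham did not pass the threshold in limma (adjusted p = 0.13, unadjusted 0.0125). It passed in 4 of 30 alternatives: with array weights (3.07 ± 0.67, adjusted p = 0.0142), with mitochondrial genes left out (2.88 ± 0.89, 0.0493), with Hoxb13 as a covariate (3.20 ± 0.88, 0.0488) and without the 2 libraries highest in neutrophil markers (1.66 ± 0.34, 0.013). Without vehicle 2 alone it was 1.66 ± 0.68 and did not pass (adjusted p = 0.198). Over all 30 the adjusted p lay between 0.013 and 0.291, and the difference between 1.42 and 3.72. ISM012-042 differed from vehicle by -1.19 ± 0.91 (adjusted p = 0.399), which became -0.32 ± 0.68 without vehicle 2 and -1.92 ± 0.79 without ISM012-042 2, and from sham by 1.34 ± 0.91 (0.376), which became 0.62 ± 0.79 without ISM012-042 2.

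Of the 9 members, 4 (Mcpt1, Mcpt2, Cma1 and Hdc) reached 1 TPM in at least 6 libraries and entered the filtered fit. The other 5 were read from the fit with no filter. Vehicle against sham asked what the colitis model did: 0 members were called, against 4.46% of the 14129 filtered genes and 2.09% of the 25729 unfiltered ones, and 2 of 9 members (Hdc and Mcpt1) had an unadjusted p under 0.05, beside 18.1% of filtered and 13.8% of unfiltered genes. Over all 9 members 8 had a positive difference, with a median of 0.54, beside a median of -0.01 over all unfiltered genes. ISM012-042 against vehicle asked what the compound did within colitis: 0 members and 0% of genes were called in both fits, while 2688 of the 14129 filtered genes (19.0%) and 13.3% of the unfiltered ones had an unadjusted p under 0.05, and 0 of 9 members did. The median was 0.18 over the 9 members and 0.14 over all unfiltered genes. Over the filtered genes it was 0.30, which fell to 0.01 under median-ratio scaling. ISM012-042 against sham gave 0 members, against 1.42% of filtered and 0.618% of unfiltered genes. Mcpt1, Mcpt2 and Fcer1a had an unadjusted p under 0.05 there, 3 of 9 members beside 20.8% of filtered and 15.1% of unfiltered genes. The median was 0.69 over the 9 members and 0.06 over all unfiltered genes. No member was without overlap in the last 2 comparisons, against 3.80% of genes higher in ISM012-042 than in sham and 0.651% higher than in vehicle. Both colitis groups were compared with the same sham libraries. Of all genes called, 46 were higher and 584 lower in vehicle than in sham (517 and 961 under median-ratio scaling), and 77 were higher and 123 lower in ISM012-042 than in sham (137 and 618).

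**Figure D3:**
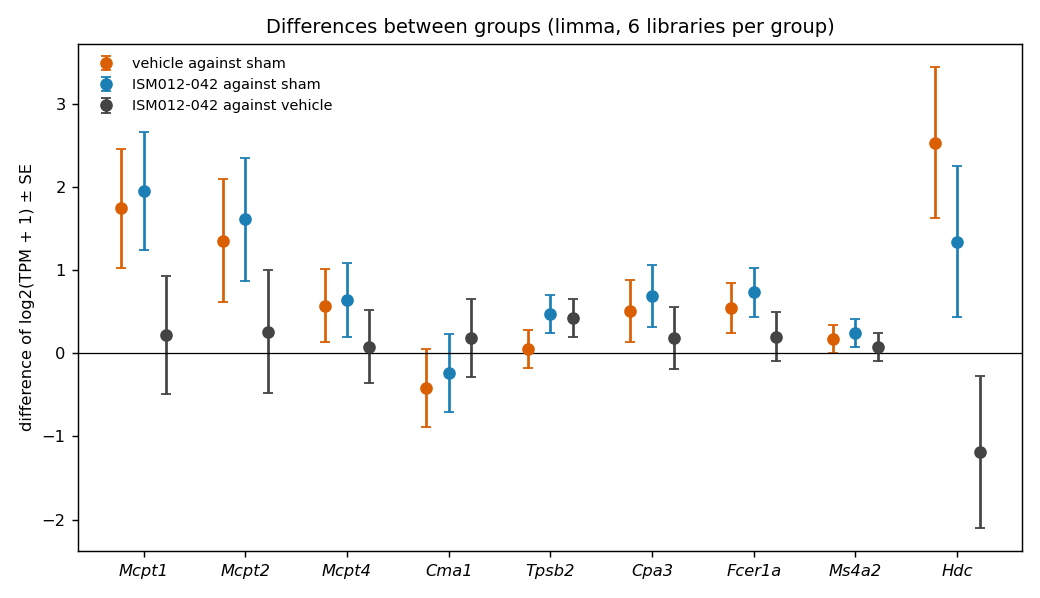
Difference of log2(TPM + 1) between groups with its SE from limma (n = 6 libraries per group) for the 9 genes in the 3 comparisons. The differences from sham are largest for Hdc, Mcpt1 and Mcpt2, with SE of 0.71 to 0.91, and those between the colitis groups are within 0.42 of 0 except for Hdc at -1.19.

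The spread within the colitis groups came from the same few libraries for most members. Vehicle 1, ISM012-042 2 and ISM012-042 3 held the 3 highest values of Mcpt1 (115, 64.8 and 53.9 TPM), of Mcpt2 (76.1, 32.7 and 32.1 TPM) and of Mcpt4 (7.41, 3.6 and 2.61 TPM). They were also the highest 3 for Cpa3 (5.92, 3.97 and 2.78 TPM), Fcer1a (3.26, 2.33 and 1.51 TPM) and Ms4a2 (1.33, 0.932 and 0.419 TPM). So 6 of the 9 members had the same 3 libraries on top, and vehicle 1 was the highest of all 18 for 7 of them, Cma1 included. Without vehicle 1 the difference of vehicle from sham was 1.20 ± 0.62 for Mcpt1, 0.72 ± 0.62 for Mcpt2, 0.12 ± 0.31 for Mcpt4, 0.17 ± 0.28 for Cpa3, 0.26 ± 0.23 for Fcer1a and -0.01 ± 0.12 for Ms4a2.

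The summed level of eosinophil markers was highest in these 3 libraries, while the sums of macrophage and basophil markers had a different order. The summed TPM of 8 eosinophil markers was 19.6 in vehicle 1, 14.8 in ISM012-042 2 and 10.6 in ISM012-042 3, and between 2.08 and 5.74 in the sham group, although the eosinophil peroxidase Epx stayed below 1 TPM throughout. Over the groups this sum reached 2.09 to 19.6 in vehicle and 3.43 to 14.8 in ISM012-042. Single markers did not all follow the sum. Siglecf was 1.62 TPM in vehicle 1, 2.66 TPM in ISM012-042 2 and 3.58 TPM in ISM012-042 3, against 0.763 to 2.89 TPM in sham. The sum of 8 macrophage markers was 840, 1524 and 1138 TPM in the same 3 libraries, and 142 to 407 TPM in sham, 158 to 1102 TPM in vehicle and 303 to 1524 TPM in ISM012-042. The highest vehicle library was vehicle 2, not vehicle 1. None of the 8 macrophage markers and none of the 2 eosinophil markers that passed the filter was called between vehicle and sham. Of all filtered genes 4.46% were called there. The difference was positive for all 8 macrophage markers and 1 of the 2 eosinophil markers, beside 5839 of the 14129 filtered genes. The basophil list of 7 genes summed to 0.924 to 2.12 TPM in sham, 1.44 to 26.3 TPM in vehicle and 1.15 to 33.7 TPM in ISM012-042. It was highest in ISM012-042 2 and vehicle 2 (26.3 TPM), with 9.64 TPM in vehicle 1 and 2.95 TPM in ISM012-042 3. Its defining protease Prss34 was listed at 0 in all libraries. Mcpt8, the basophil protease of the chymase locus, was at most 0.206 TPM in sham, with 2.86 TPM in vehicle 1 and 1.12 TPM in ISM012-042 2. In vehicle 2 Mcpt8 was listed at 0, so the high basophil sum of that library came from other genes of the list. The part of these cells in the levels of the members was not tested.

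**Figure D4:**
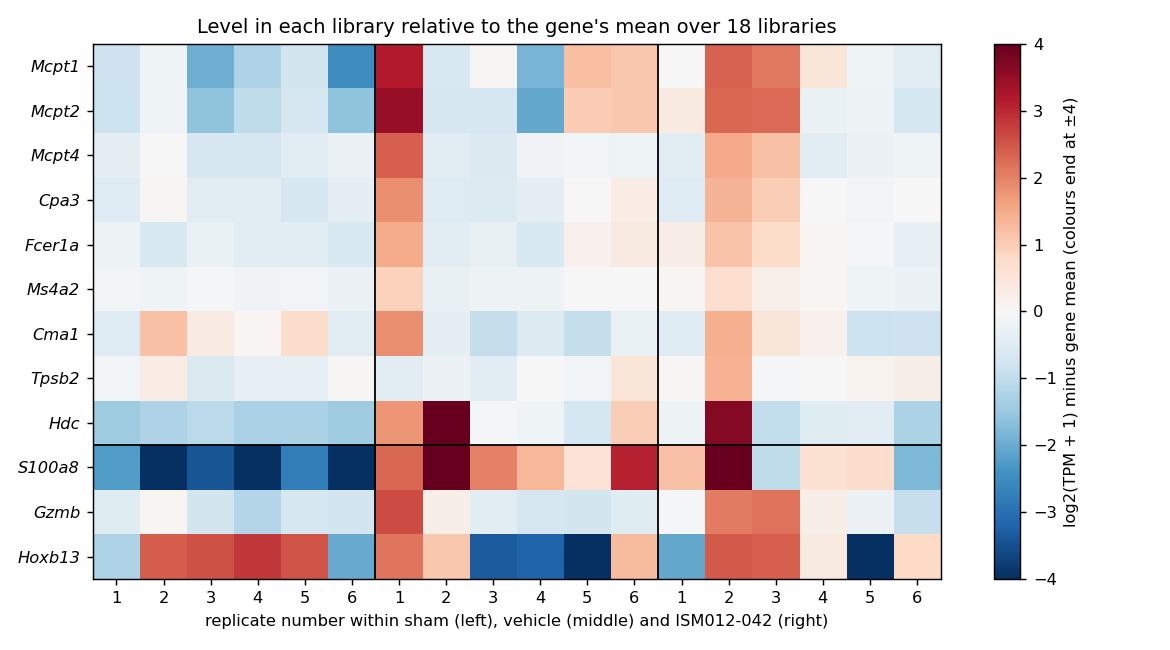
Level of the 9 genes and of S100a8, Gzmb and Hoxb13 in each of the 18 libraries as log2(TPM + 1) minus the gene's mean over all libraries (colour scale ends at ±4). Vehicle 1, ISM012-042 2 and ISM012-042 3 are red in the upper rows, whereas Hdc is darkest in vehicle 2 and ISM012-042 2, as S100a8 is.

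After removal of the group means, the 15 pairs among Mcpt1, Mcpt2, Mcpt4, Cpa3, Fcer1a and Ms4a2 had Pearson r between 0.77 and 0.97 over the 18 libraries, with a median of 0.87. Without the 2 libraries farthest from the median, the same pairs had r between 0.51 (Mcpt4 and Fcer1a) and 0.94, with a median of 0.77. Mcpt1 and Mcpt2 were closest (r = 0.97, Spearman rho = 0.93, and r = 0.94 without the 2 libraries farthest from the median). Cma1 ranged from 0.23 to 0.85 with the other members except Hdc, and Tpsb2 from 0.17 to 0.31. Without the 2 farthest libraries these ranges were -0.14 to 0.69 for Cma1 and -0.35 (with Fcer1a) to 0.55 (with Mcpt2) for Tpsb2, so both rest partly on those libraries. These are descriptions across libraries that share their scaling to a fixed total. Hdc had r of 0.17 to 0.44 to the other 8 members, and -0.19 to 0.23 without the 2 farthest libraries.

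The highest levels of Hdc were in vehicle 2 (167 TPM) and ISM012-042 2 (41.9 TPM), followed by vehicle 1 (10.5 TPM), and the top 3 libraries held 91.9% of its summed TPM. The first 2 were also the libraries with the highest summed TPM of 10 neutrophil markers, 28034 and 7529 TPM. That sum ranged from 36.7 to 723 TPM in sham (median 430), 204 to 28034 TPM in vehicle (median 754) and 98.8 to 7529 TPM in ISM012-042 (median 329). By limma 4 of the 10 markers were called higher in vehicle than in sham, beside 46 of the 14129 filtered genes. The difference was positive for 9 of the 10 markers, and for Ly6g it was -1.14 ± 1.18 (adjusted p = 0.671). S100a8, a subunit of the neutrophil protein calprotectin, was 0.508 to 9.85 TPM in sham and 73.8 to 12002 TPM in vehicle. In sham 3, where the marker sum was 723 TPM, S100a8 was 3.73 TPM and S100a9 was 5 TPM. Other genes of the list made up most of the sum in that library. The group-centred correlation of Hdc with S100a8 was r = 0.92 (rho = 0.70, and r = 0.67 without the 2 farthest libraries), whereas that of Mcpt1 with S100a8 was r = 0.13 (rho = 0.10, and r = 0.11). Whether neutrophils account for the level of Hdc was not tested.

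**Figure D5:**
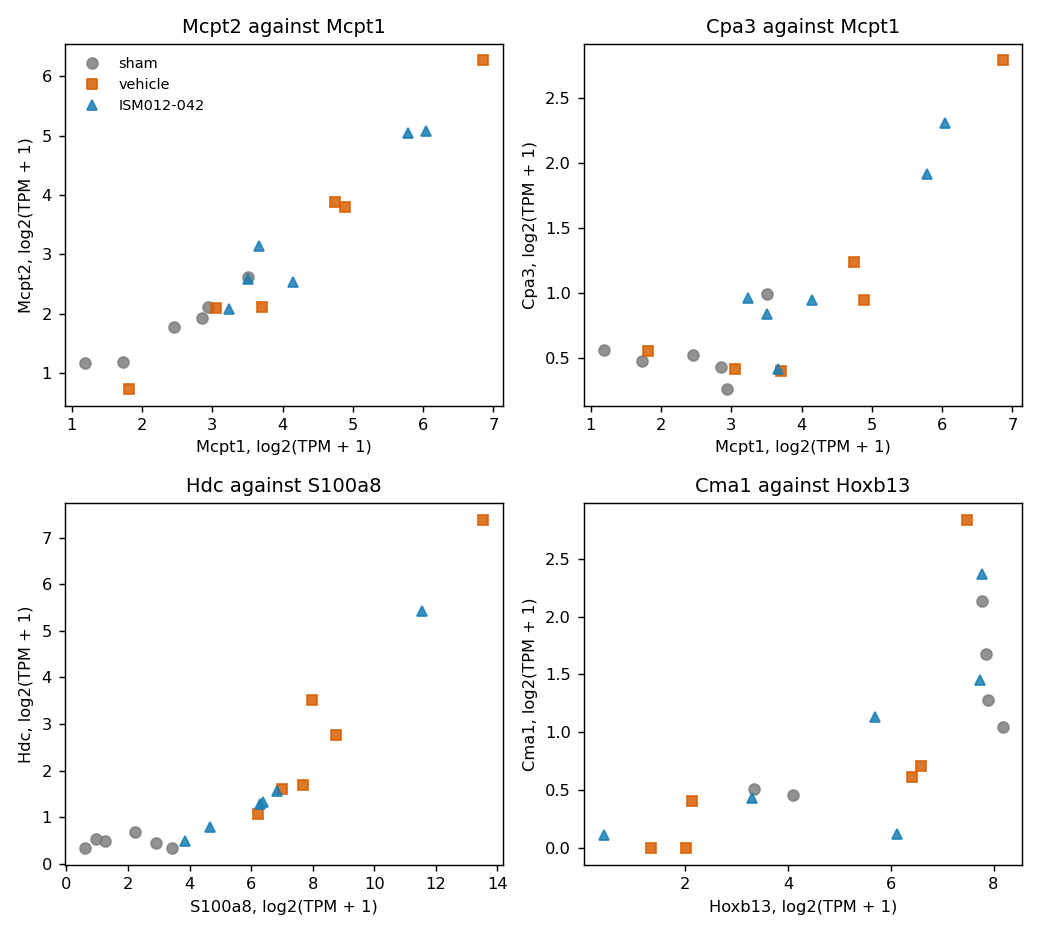
Each point is 1 of 18 libraries, with both axes in log2(TPM + 1), for Mcpt2 and Cpa3 against Mcpt1, Hdc against S100a8 and Cma1 against Hoxb13. Mcpt2 follows Mcpt1 in all groups, Hdc is highest where S100a8 is highest, and the 7 libraries with low Hoxb13 all have low Cma1.

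By the same measure, the genes most like Mcpt1 among 13000 candidates were the immunoproteasome subunit Psmb9 (r = 0.85), the guanylate-binding protein gene Gbp8 (0.85), AA467197 (0.84), H2-DMa of the class II antigen loading machinery (0.83) and AW112010 (0.82). Mcpt4 was used in place of Cpa3, which was below the filter. Mcpt4 was below it too, with at least 1 TPM in only 3 libraries. The genes most like Mcpt4 were the gasdermin gene Gsdmc (r = 0.94), Gbp8 (0.92) and the lipoxygenase gene Alox15 (0.92). Next came the chemokine gene Ccl8 and the granzyme gene Gzmb (each 0.91). Gzmb lies in the same cluster on chromosome 14, at 56258836 to 56262334, and was 12.9 TPM in vehicle 1, 8.38 TPM in ISM012-042 2 and 9.2 TPM in ISM012-042 3, against at most 1.38 TPM in sham. For Hdc, added as a reference after its values had been seen, they were Clec4e, the complement receptor gene C5ar1 and Stfa2l1 (each r = 0.99), and Asprv1 and Lilr4b (each 0.98). The lists of Mcpt1 and Mcpt4 shared Gbp8, and neither shared a gene with that of Hdc. All these genes were picked for the highest r. Without the 2 libraries farthest from the median of the reference, r was 0.69 (AA467197) to 0.86 (H2-DMa) for Mcpt1. For Mcpt4 it was then 0.72 (Ccl8) to 0.84 (Gsdmc), with 0.77 for Gzmb, and for Hdc 0.92 to 0.94.

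Hoxb13, a homeobox gene of the most distal colon, was high in some libraries and low in others of every group. Its log2(TPM + 1) exceeded 5 in 11 libraries, 4 of sham, 3 of vehicle and 4 of ISM012-042. Cma1 was 0.09 to 6.14 TPM in those libraries (median 1.43) and 0 to 0.422 TPM in the other 7 (median 0.324). Within groups Cma1 changed by 0.25 ± 0.06 log2 units per log2 unit of Hoxb13 (adjusted p = 0.00525, limma). It was the only member that passed, against 36.2% of the filtered genes and 16.0% of the unfiltered ones, and the slope was examined after the data had been seen. Mcpt1 had a slope of 0.27 ± 0.10 (adjusted p = 0.052), Mcpt2 of 0.28 ± 0.11 (0.0582), Hdc of 0.30 ± 0.14 (0.0916) and Cpa3 of 0.15 ± 0.05 (0.0661). Kit had a negative slope of -0.11 ± 0.04 (0.0335). With Hoxb13 in the model, the difference of Cma1 from sham turned from -0.42 to 0.13 ± 0.35 in vehicle and from -0.24 to 0.09 ± 0.33 in ISM012-042. Vehicle 1, ISM012-042 2 and ISM012-042 3 were all among the libraries of high Hoxb13, at 179, 219 and 211 TPM.

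Of 18 other mast cell genes 11 passed the filter, and 1 was called in limma, Hpgds, which makes prostaglandin D and fell in vehicle against sham. Of all filtered genes 4.46% were called in that comparison, 584 lower and 46 higher. Which cells carried the Hpgds signal was not tested. Hpgds was 3.97 to 10.5 TPM in sham (median 5.26), 1.62 to 3.6 TPM in vehicle (median 2.69) and 3.1 to 6.37 TPM in ISM012-042 (median 4.78). Its difference was -0.98 ± 0.24 (adjusted p = 0.0256, limma). The call was lost without sham 2, 4 or 5 or vehicle 3, 4 or 5 (adjusted p of 0.0541 to 0.0716) and with only the groups compared (0.0575). ISM012-042 differed from vehicle in Hpgds by 0.65 ± 0.24 (adjusted p = 0.236). Srgn, the proteoglycan core that holds proteases in granules and is made by many blood cells, differed between vehicle and sham by 2.21 ± 0.80 (adjusted p = 0.131). Srgn passed in 5 of 31 alternatives, with an adjusted p of 0.0301 to 0.226 over all of them, and its difference was 1.52 ± 0.65 without vehicle 2.

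Of 14 genes of IgE receptor signalling all passed the filter and 0 were called by limma in any comparison. Of all filtered genes 4.46% were called in vehicle against sham, 0% in ISM012-042 against vehicle and 1.42% in ISM012-042 against sham. An unadjusted p under 0.05 was found for 1, 1 and 3 of the 14 genes in the same order. Of all filtered genes 18.1%, 19.0% and 20.8% had one. Plcg1, the phospholipase that starts calcium release, had the smallest p for ISM012-042 against vehicle (0.65 ± 0.17, adjusted p = 0.233). Of 22 genes of mast cell growth and type 2 cytokines 14 passed the filter. By limma 0 of these 14 were called, beside the same shares of all filtered genes. An unadjusted p under 0.05 was found for 1, 2 and 4 of them in the same order of comparisons. Il9, a mast cell growth cytokine, was listed at 0 in all libraries, and Il3, Il5, Il13 and Il25 stayed below 1 TPM. Il4ra, the shared receptor chain of type 2 cytokines, differed by 1.03 ± 0.33 in vehicle against sham (adjusted p = 0.0833). Il4ra passed the threshold in 9 of 31 alternatives, among them median-ratio scaling (1.14 ± 0.26, adjusted p = 0.0119) and the replicate number as a block (1.03 ± 0.25, 0.0339), and the adjusted p ranged from 0.0119 to 0.163. In ISM012-042 against sham Il4ra differed by 1.09 ± 0.33 (adjusted p = 0.102, range over 31 alternatives 0.00851 to 0.202) and passed in 4 of them. Kitl, the ligand of Kit, was 18.9 to 45 TPM in sham, 12.5 to 40.2 TPM in vehicle and 26.3 to 46.9 TPM in ISM012-042. Kit had medians of 16.4, 17.4 and 28.4 TPM and differed between ISM012-042 and vehicle by 0.60 ± 0.26 (adjusted p = 0.25). Of 8 genes of histamine reception, transport and breakdown 5 passed. By limma 0 of these 5 were called, beside the same shares of all filtered genes. An unadjusted p under 0.05 was found for 1, 0 and 2 of them. The histamine receptor gene Hrh1 was 2.77 to 5.22 TPM in sham and 1.4 to 4.7 TPM in vehicle, a difference of -0.62 ± 0.19 (adjusted p = 0.0761). Hrh1 passed in 4 of 30 alternatives: median-ratio scaling (adjusted p = 0.0481), mitochondrial genes left out (0.0452), without sham 3 (0.0361) and without vehicle 1 (0.0137), with a range of 0.0137 to 0.168 over all 30.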

How the data were processed

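Colon RNA was measured in 18 libraries, and groups and replicate numbers came from the sample titles. The authors deposited TPM values, a level per gene length and library total, and the submitters' processing notes name DRAGEN 4.0.3 and mm10. Of the counting rules, gene annotation and use of strand, nothing is given in the labels. TPM keeps no record of depth, so the precision of low values is unknown beyond the spread between replicates. An abundant class such as mitochondrial transcripts (20.1 to 57.8% of TPM) lowers all other values. Between 12681 and 14632 genes per library reached 1 TPM, and no 2 libraries were identical. A total of 4 entries had duplicated symbols and were kept apart.

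The 3 comparisons were fitted with limma 3.58.1 in R 4.3.3 on log2(TPM + 1), a scale that understates changes of low genes, with all 18 libraries in 1 fit, trend and robust empirical Bayes, two-sided tests and Benjamini-Hochberg adjustment over all genes at a threshold of 0.05. Genes with at least 1 TPM in at least 6 libraries were tested (14129). Members below that were read from the fit without a filter (25729 genes). The scripts were tested on simulated data. The members and the gene lists were chosen with earlier results of these data known. All members are named, with up to 3 genes per list by p for vehicle against sham and up to 2 for ISM012-042 against vehicle, a fixed set around Kit and the IgE receptor, and the 5 genes most alike in pattern, without predicted genes. Alternatives were pseudocounts of 0.1 and 5, no filter and 5 TPM, median-ratio and quantile scaling, array weights, mitochondrial genes left out, empirical Bayes without trend, fits of 2 groups alone, a replicate block, Hoxb13 as a covariate and each library left out. The fit without the 2 libraries highest in neutrophil markers was added after seeing the data, as was the Hoxb13 slope. Sequences came from the RefSeq promoter table (GRCm38.p6) and GENCODE M21, and positions from RefSeq.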

Additional observations from a re-analysis of the deposited data

Results flagged for a closer look

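In 6 of the 27 combinations of a member and a group, 1 library stood apart from the other 5 by Dixon's ratio on the log2(TPM + 1) scale (critical value 0.625). For a single combination chance gives about 1 in 20, but the 27 are not independent, because most members correlated across libraries. In vehicle 4 of the 6 were vehicle 1: Mcpt4 at 7.41 TPM with the next library at 0.491 TPM, Cpa3 at 5.92 against 1.36 TPM, Cma1 at 6.14 against 0.637 TPM, and Ms4a2 at 1.33 against 0.211 TPM. In the ISM012-042 group both were ISM012-042 2: Tpsb2 at 2.87 against 0.733 TPM and Hdc at 41.9 against 1.95 TPM. No sham library was set apart for any member.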

How the results depend on the processing

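For vehicle against sham the direction held under all alternatives for Mcpt1, Mcpt2, Mcpt4, Cpa3, Fcer1a and Hdc. It reversed for Cma1 with Hoxb13 as a covariate (0.13, and 0.09 for ISM012-042 against sham), and with single libraries left out Tpsb2 ranged from -0.08 to 0.14 and Ms4a2 from -0.01 to 0.23. In vehicle against sham 1 member, Hdc, was called with mitochondrial genes left out, with array weights, with the Hoxb13 covariate and without the 2 libraries highest in neutrophil markers. In ISM012-042 against sham 1 member, Mcpt1, was called with the Hoxb13 covariate. For ISM012-042 against vehicle, Hdc stayed negative (-2.26 to -0.32) and Tpsb2 positive (0.13 to 1.08) in all 30 alternatives, while the sign of the other 7 members changed in some: under median-ratio scaling Mcpt1 was -0.10, Mcpt2 -0.03, Mcpt4 -0.08, Cpa3 -0.01 and Ms4a2 -0.01. Under quantile normalization Mcpt1 was -0.02, Mcpt4 -0.13, Cpa3 -0.07 and Ms4a2 -0.03. With array weights Mcpt1 was -0.38, Mcpt2 -0.66, Mcpt4 -0.32, Cpa3 -0.10, Cma1 -0.27 and Ms4a2 -0.02. With the Hoxb13 covariate Mcpt1 was -0.01, Mcpt4 -0.05 and Cma1 -0.03, and with a pseudocount of 5 Mcpt4 was -0.01. Without the 2 libraries highest in neutrophil markers Mcpt1 was -0.34, Mcpt2 -0.28, Mcpt4 -0.30, Cpa3 -0.17, Cma1 -0.14, Fcer1a -0.08 and Ms4a2 -0.10. With single libraries left out the range was -0.25 to 0.75 for Mcpt1, -0.22 to 0.89 for Mcpt2, -0.18 to 0.52 for Mcpt4, -0.04 to 0.52 for Cpa3, -0.11 to 0.59 for Cma1 and -0.04 to 0.25 for Ms4a2. No member was called in that comparison under any alternative. The cause of these changes was not tested. No alternative adjusted for fat in the tissue. The summed TPM of 7 adipocyte markers had medians of 77 in sham, 837 in vehicle and 2372 in ISM012-042. Whether fat bears on the sign of Tpsb2 was not tested. Where a filter of 5 TPM removed a member it gave no value.

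Of all genes, 630 were called in vehicle against sham, 1478 under median-ratio scaling, 1469 under quantile normalization, 1332 with mitochondrial genes left out, 361 with only the groups compared and 336 to 964 with single libraries left out. In ISM012-042 against sham 200 were called, 755, 803, 1132 and 709 under the same 4 settings, 3260 with array weights, 1379 with the Hoxb13 covariate and 76 to 328 with single libraries left out. With the replicate number as a block, 554 and 109 genes were called, the call of Hpgds was lost (-0.98, adjusted p = 0.058) and Il4ra was called (1.03, 0.0339) in vehicle against sham, while no member was called. Whether the numbers pair the samples is not given in the labels. After removal of the group means, correlations of same-numbered libraries lay between -0.38 and 0.61. Libraries of unlike number were not compared, so this range cannot decide the question. The unknown depth limits every member below 1 TPM.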

Other observations

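The tryptases did not share their top library with Mcpt1, Mcpt2, Mcpt4 or Cma1, which were all highest in vehicle 1. Tpsab1 was at 4.95 TPM in ISM012-042 2, the library in which Tpsb2 was also highest at 2.87 TPM, and at 0.272 TPM in vehicle 1, where Tpsb2 was at 0.09 TPM and Mcpt4 at 7.41 TPM. Tpsg1, the membrane-anchored tryptase whose gene overlaps the calcium channel gene Cacna1h, was far above Tpsb2 in every library. Its level was 26.5 to 80.1 TPM in sham, 35.5 to 69.4 TPM in vehicle and 38.2 to 78.1 TPM in ISM012-042. Which cells carried the Tpsg1 signal was not tested. Il1rl1, the Il33 receptor gene, was at 13.1 TPM in vehicle 1, 28.1 TPM in ISM012-042 2 and 15.4 TPM in ISM012-042 3, and at most 4.08 TPM in sham.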
